A study of Mus musculus with 12 samples.

Results

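Antiviral interferon-stimulated genes were followed across cultured mouse adipocytes. The set was a fixed list of 55 gene symbols, and a gene was kept when it reached 1 FPKM (fragments counted per unit of transcript length and of sequencing output) in at least 2 of the 12 libraries. Of 24888 entries measured, 54 were members by this rule. The only listed gene that missed it was Oas1g, a relative of the 2'-5'-oligoadenylate synthetases, which stayed at or below 0.960 FPKM in every library.

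The libraries formed 6 groups of 2. Beige adipocytes were differentiated with rosiglitazone, an agonist of the nuclear receptor PPARγ, from preadipocytes of the inguinal white fat of C57BL/6 mice, either labelled as knockout for the transcription factor ATF7 (KO-labelled) or wild type (WT). White adipocytes were made from KO-labelled and WT preadipocytes of the same depot without rosiglitazone. The remaining groups were beige adipocytes of C3H10t1/2, a mouse mesenchymal cell line, overexpressing ATF7 or serving as its control, all with rosiglitazone. The labels do not give the kind of knockout allele, the vector, the age of the mice or whether replicates came from separate animals or cultures, so the p-values reflect nothing beyond the scatter of these libraries, and that scatter could be technical.

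Atf7 itself did not separate the KO-labelled libraries from WT. It stood at 7.26 and 7.94 FPKM in KO-labelled beige cultures against 7.80 and 7.83 FPKM in WT beige cultures, and at 6.88 and 7.73 FPKM in KO-labelled white cultures against 9.10 and 7.10 FPKM in WT white cultures. Gene-level values cannot reveal the loss of single exons, and the genotype is therefore taken from the labels. In C3H10t1/2, Atf7 was at 41.2 and 39.1 FPKM with overexpression and at 8.52 and 9.09 FPKM in the controls. All libraries expressed all 10 adipocyte markers of the list used here. The depth of the libraries is unknown, because FPKM carries no counts, and between 9844 and 10877 entries per library reached 1 FPKM.

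Type I interferons are secreted proteins that cells release when they sense foreign nucleic acid. They bind the receptor IFNAR1/IFNAR2, whose kinases JAK1 and TYK2 activate transcription factors of the STAT family. The ISGF3 complex, which contains IRF9, then binds interferon-stimulated response elements (ISREs) in promoters and turns on genes that sense, degrade or trap viruses. Many cells also keep a low tonic level of these transcripts without infection.

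The level of the whole set differed strongly between the groups. The median of the 54 members was 14.8 and 13.9 FPKM in KO-labelled beige libraries, 9.53 and 11.4 FPKM in WT beige libraries, 6.45 and 7.97 FPKM in KO-labelled white libraries, and 3.81 and 4.48 FPKM in WT white libraries. It was 0.627 and 0.794 FPKM in C3H10t1/2 libraries overexpressing ATF7 and 0.433 and 0.519 FPKM in their controls. The 2 libraries of each group did not overlap those of any other group in this median. The group with the highest mean was KO-labelled beige for 43 members and KO-labelled white for 7, and each other group had the highest mean for 1 member. A mean of at least 1 FPKM was reached by 53 members in KO-labelled beige, 53 in WT beige, 51 in KO-labelled white and 45 in WT white cultures, and by 23 in C3H10t1/2 overexpressing ATF7 and 19 in its controls.

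**Figure D1:**
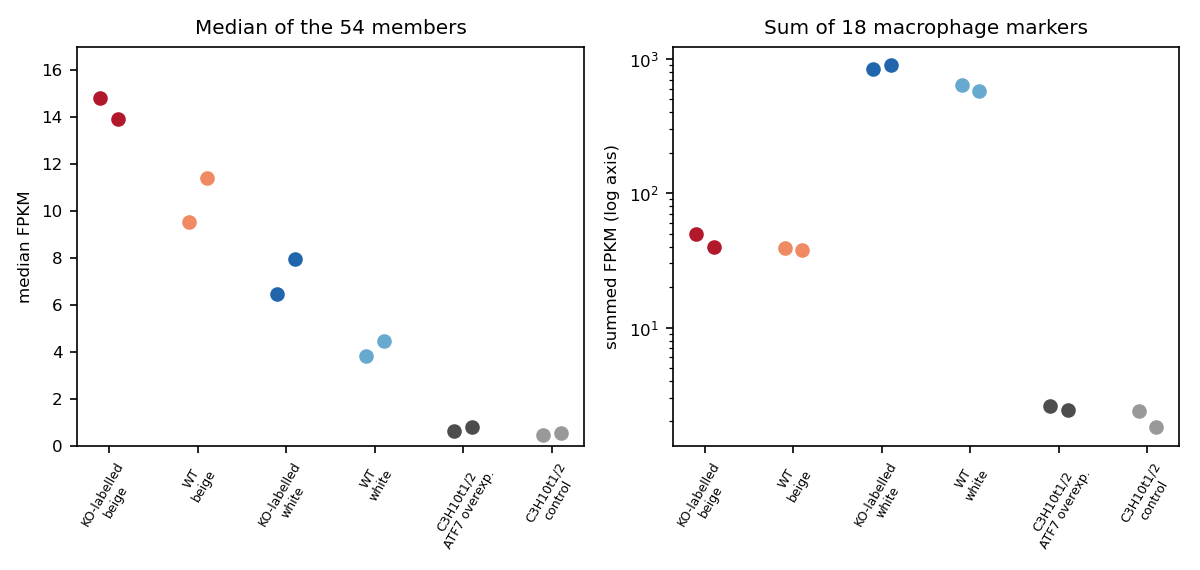
Left, median FPKM of the 54 members in each library; right, summed FPKM of 18 macrophage marker genes on a log axis, with 2 points per group. The member median was 13.9 to 14.8 FPKM in KO-labelled beige and 3.81 to 4.48 FPKM in WT white libraries, while the macrophage sum was 574 to 901 FPKM in the white cultures and 37.5 to 49.9 FPKM in the beige cultures made from mouse fat.

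The members' promoters were searched for the ISRE core to show the element that names this gene class. RefSeq promoters of the mouse build GRCm38.p6, 250 bases before to 50 bases after the start site, were available for 41 of the 54 kept members. The core was searched as GAAA, any 2 bases and GAAA again, on both strands and with overlapping matches counted. It was present in 17 of these 41 promoters (41.5%). It was present in 3.99% of the 27025 genes with a promoter in the table. A match describes letters and does not show binding, and its absence says only that these letters are not in the window.

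The promoters of Isg15, Ifit1, Rsad2 and Slfn5 are shown because the first 3 were among the members with large differences between beige and white cultures and Slfn5 differed in the opposite direction. Capitals mark the ISRE core on either strand. Isg15 lies on the minus strand (chr4:156200769-156201068), Ifit1 on the plus strand (chr19:34640639-34640938), Rsad2 on the minus strand (chr12:26456403-26456702) and Slfn5 on the plus strand (chr11:82951852-82952151).
Isg15: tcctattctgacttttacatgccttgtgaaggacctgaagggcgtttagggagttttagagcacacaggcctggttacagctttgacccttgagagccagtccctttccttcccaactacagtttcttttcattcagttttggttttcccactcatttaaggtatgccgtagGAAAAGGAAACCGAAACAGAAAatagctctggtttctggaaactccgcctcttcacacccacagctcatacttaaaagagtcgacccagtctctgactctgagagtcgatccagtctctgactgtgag
Ifit1: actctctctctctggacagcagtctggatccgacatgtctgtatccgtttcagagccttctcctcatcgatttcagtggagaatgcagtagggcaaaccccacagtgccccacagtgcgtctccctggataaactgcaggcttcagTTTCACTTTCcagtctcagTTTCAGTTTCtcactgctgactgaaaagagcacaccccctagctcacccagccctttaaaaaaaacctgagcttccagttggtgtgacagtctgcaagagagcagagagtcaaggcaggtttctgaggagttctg
Rsad2: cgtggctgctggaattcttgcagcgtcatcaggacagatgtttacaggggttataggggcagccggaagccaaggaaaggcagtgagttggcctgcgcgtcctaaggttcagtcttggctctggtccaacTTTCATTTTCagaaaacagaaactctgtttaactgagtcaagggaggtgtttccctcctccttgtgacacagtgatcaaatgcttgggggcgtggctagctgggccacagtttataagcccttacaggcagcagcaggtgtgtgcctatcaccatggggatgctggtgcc
Slfn5: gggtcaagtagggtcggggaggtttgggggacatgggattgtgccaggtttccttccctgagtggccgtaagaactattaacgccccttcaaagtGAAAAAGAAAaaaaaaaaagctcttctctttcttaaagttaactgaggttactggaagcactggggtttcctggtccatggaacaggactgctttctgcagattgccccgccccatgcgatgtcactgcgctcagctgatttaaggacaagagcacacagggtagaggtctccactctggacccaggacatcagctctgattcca
Isg15 has 3 overlapping matches that begin at positions -78, -72 and -66 from the start site. Ifit1 has 2 separate matches, at -104 and -85, and Rsad2 and Slfn5 have 1 each, at -120 and -155. The core was found in 12 of 30 promoters of members higher in WT beige than WT white cultures, in 2 of 4 of those lower and in 3 of 7 of those not called.

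**Figure D2:**
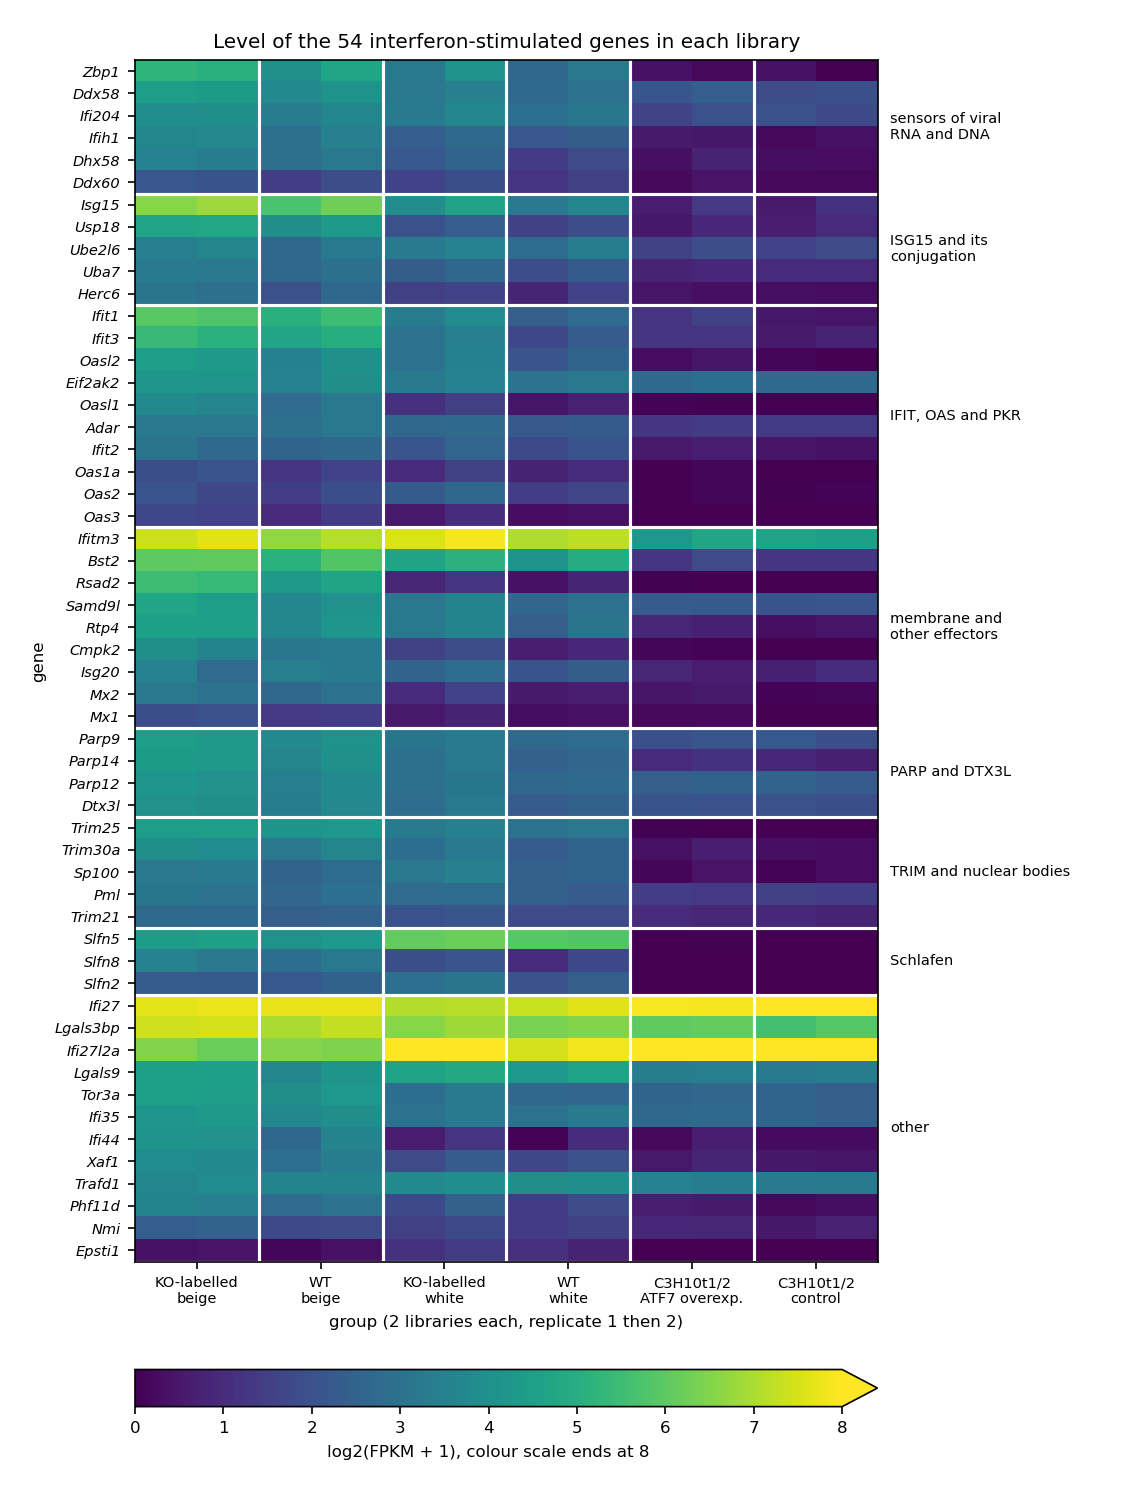
Level of each of the 54 members (rows, by role) in each of the 12 libraries (columns, replicates 1 and 2 of each group) as log2(FPKM + 1); the colour scale ends at 8. Most rows darken step by step across the 4 groups made from mouse fat, and the C3H10t1/2 columns are mostly the darkest, whereas Ifi27l2a and Ifi27 are brightest there.

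The comparison of beige with white adipocytes asks how the set differs between cultures made with and without rosiglitazone. Differences were tested with limma on log2(FPKM + 1), a scale that understates changes of low genes, and a gene was called at a Benjamini-Hochberg adjusted p under 0.05 over all genes fitted. In WT cultures 40 of the 54 members were higher in beige than in white, 5 were lower and 9 were not called. Of all 11294 genes fitted, 53.7% were called, 21.6% as higher and 32.1% as lower. The members' median log2 difference was 0.95, and the median of all genes was -0.10. In KO-labelled cultures 41 members were higher in beige, 5 were lower and 8 were not called, beside 61.0% of all genes called, 26.6% as higher and 34.3% as lower. There the members' median was 1.08 and that of all genes -0.06. In both genotypes 38 members were called higher and 3 were called lower, beside 18.8% and 27.7% of all genes. Both beige libraries lay above both white libraries for 43 members in WT cultures and below them for 5, beside 31.3% and 46.2% of all genes. In KO-labelled cultures the counts were 43 and 6, beside 36.2% and 44.7% of all genes.

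Among the sensors of viral nucleic acid, 5 of 6 members were higher in WT beige than in WT white cultures. Dhx58, which encodes LGP2, a regulator of RIG-I-like sensing, stood at 6.69 and 8.15 FPKM in WT beige cultures against 1.67 and 2.59 FPKM in WT white cultures (log2 difference 1.44, SE 0.18, adjusted p = 0.000162). Ddx58, the RNA sensor RIG-I, stood at 13.1 and 16.4 FPKM in WT beige against 5.75 and 7.15 FPKM in WT white cultures (1.08, SE 0.15, adjusted p = 0.000347). The beige and white libraries did not overlap for either gene. Ifih1, the long double-stranded RNA sensor MDA5, differed by 0.94 (adjusted p = 0.00231) and Zbp1, a sensor of Z-form nucleic acid, by 1.42 (adjusted p = 0.00462). Ddx60, a helicase linked to RIG-I signalling, was not called (0.34, adjusted p = 0.124).

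ISG15 is a ubiquitin-like protein that is joined to other proteins, and 4 of 5 members of its pathway were higher in WT beige cultures. Isg15 stood at 51.8 and 76.0 FPKM in WT beige cultures and at 7.92 and 11.7 FPKM in WT white cultures, a ratio of means of 6.52 (2.58, SE 0.27, adjusted p = 6.43e-05). Usp18, the protease that removes ISG15 and restrains the interferon receptor, stood at 14.4 and 18.9 FPKM in WT beige cultures against 1.98 and 2.71 FPKM in WT white cultures (2.39, SE 0.17, adjusted p = 8.06e-06). Neither gene overlapped between the groups. The activating enzyme Uba7 differed by 0.74 (adjusted p = 0.00406) and the ligase Herc6 by 1.11 (adjusted p = 0.00769), whereas the conjugating enzyme Ube2l6 was not called in either genotype.

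Of the 10 kept genes for IFIT proteins, oligoadenylate synthetases, PKR and the RNA editor ADAR1, 8 were higher in WT beige cultures and none was lower. Ifit1, which binds viral RNA lacking cap methylation, stood at 32.8 and 44.7 FPKM in WT beige cultures against 4.41 and 5.97 FPKM in WT white cultures (2.68, SE 0.20, adjusted p = 1.1e-05). Ifit3, its partner, stood at 24.8 and 30.5 FPKM in WT beige against 2.35 and 3.91 FPKM in WT white cultures (2.82, SE 0.22, adjusted p = 1.12e-05). For both genes every beige library lay far above every white library. Oasl1, an oligoadenylate synthetase-like protein, differed by 2.39 (adjusted p = 1.3e-05), and Oas1a and Oas2, which make the messenger that activates RNase L, were not called. Ifit2, a neighbour of Ifit1 and Ifit3 on chromosome 19, differed by 0.70 (adjusted p = 0.0115). Oas3, also called higher, averaged 0.243 FPKM in WT white and 0.752 FPKM in KO-labelled white cultures. It met the filter only with the help of the beige libraries, where it is high.

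Among membrane and other effectors 8 of 9 were higher in WT beige cultures. Rsad2, the enzyme viperin that makes a chain-terminating nucleotide, stood at 18.8 and 24.7 FPKM in WT beige cultures and at 0.312 and 0.785 FPKM in WT white cultures, a ratio of means of 39.6. In KO-labelled cultures it stood at 44.2 and 40.3 FPKM in beige and at 0.828 and 1.39 FPKM in white, a ratio of 38.1 (4.37, SE 0.19, adjusted p = 4.56e-07). Rsad2 had the largest log2 difference of the 54 members in both genotypes. Among white libraries it reached 1 FPKM only in a KO-labelled one, at 1.39 FPKM. It therefore met the filter only with the help of the beige libraries, where it is high. Cmpk2, a nucleotide kinase whose gene is the neighbour of Rsad2 on chromosome 12, stood at 7.75 and 9.09 FPKM in WT beige against 0.580 and 0.861 FPKM in WT white cultures (2.45, SE 0.17, adjusted p = 6.38e-06). The GTPase genes Mx2 and Mx1 differed by 2.25 (adjusted p = 2.81e-05) and 1.08 (adjusted p = 9.86e-05). Mx1 reached 1 FPKM in no white library, so it was fitted only through the beige libraries, where it is high. Ifitm3, which keeps viruses from fusing with endosomes, was the exception, at 102 and 137 FPKM in WT beige and 131 and 147 FPKM in WT white cultures (adjusted p = 0.317).

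**Figure D3:**
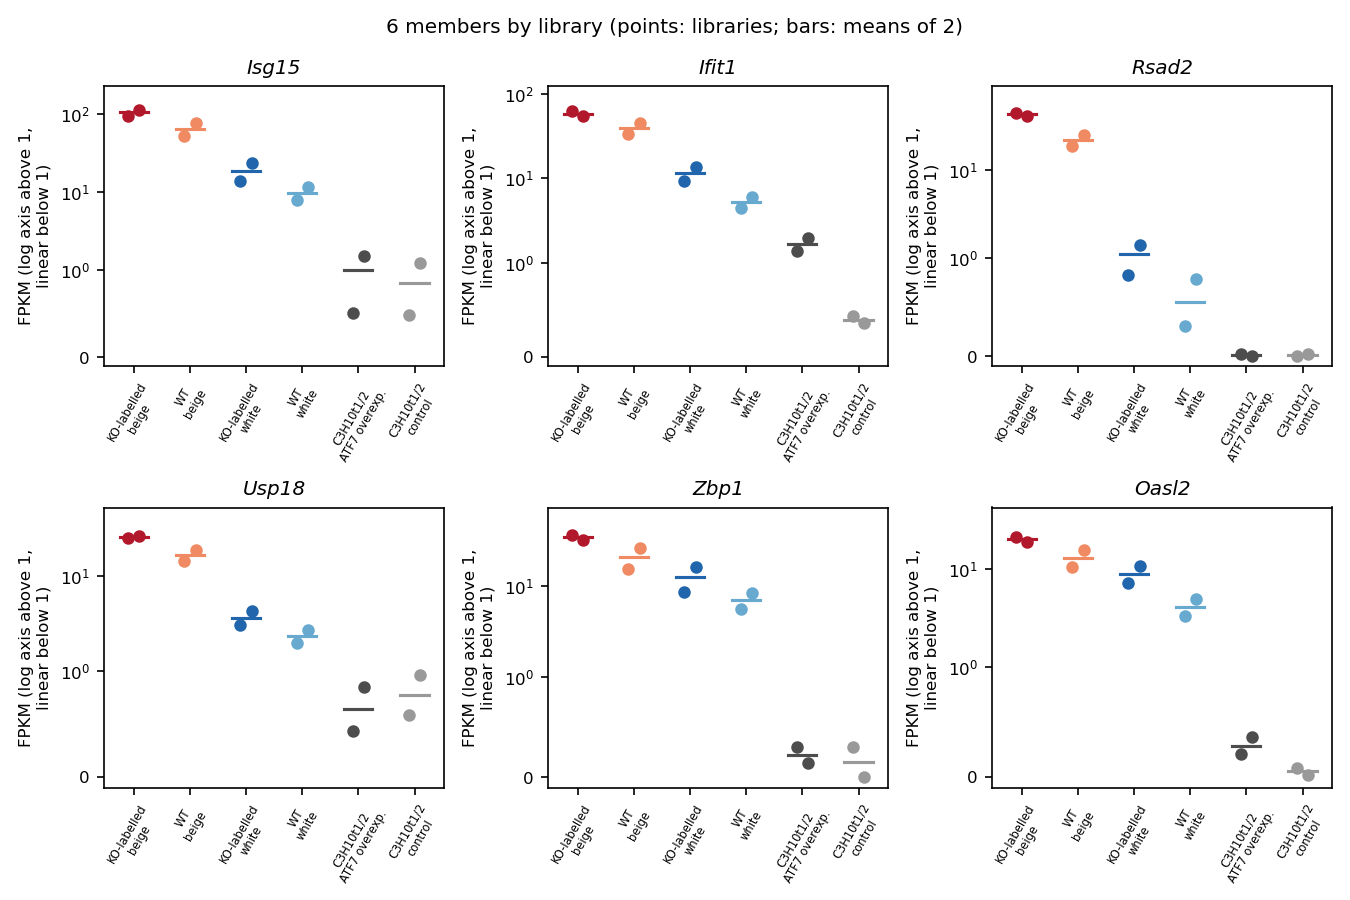
FPKM of Isg15, Ifit1, Rsad2, Usp18, Zbp1 and Oasl2 in each library (points) with the mean of each group (bars), on an axis that is linear below 1 and logarithmic above. Each gene is highest in the KO-labelled beige libraries, and Rsad2 is at 0.312 to 1.39 FPKM in the white libraries against 18.8 to 44.2 FPKM in the beige libraries made from mouse fat.

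All 4 genes of the PARP9 group, which add ADP-ribose or ubiquitin to proteins, were higher in WT beige cultures. Parp14 stood at 11.5 and 15.2 FPKM in WT beige against 4.47 and 5.24 FPKM in WT white cultures (1.29, SE 0.16, adjusted p = 0.000157), and the others differed by 0.89 to 1.20. Parp9 and Dtx3l overlap in the genome, so their reads may not be fully separable. Of the TRIM and nuclear body genes 4 of 5 were higher. Trim25, a ubiquitin ligase that acts on RIG-I, stood at 16.5 and 18.4 FPKM in WT beige against 7.01 and 8.10 FPKM in WT white cultures (1.11, SE 0.11, adjusted p = 4.65e-05). Trim21, an intracellular antibody receptor, differed by 0.62 (adjusted p = 0.000639), and Sp100 was not called in either genotype.

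The 3 Schlafen genes, named after a family of interferon-inducible proteins, had different patterns. Slfn5 stood at 16.3 and 18.1 FPKM in WT beige cultures and at 59.4 and 55.6 FPKM in WT white cultures (-1.69, SE 0.10, adjusted p = 3.52e-06). Slfn8 stood at 6.35 and 8.32 FPKM in WT beige cultures against 0.976 and 2.35 FPKM in WT white cultures (1.69, SE 0.24, adjusted p = 0.000402). Slfn2 was at 3.57 and 4.65 FPKM in WT beige and 3.09 and 4.31 FPKM in WT white cultures, which overlap. All 3 genes lie on chromosome 11. Slfn5 also overlaps an antisense entry, and the sources used here do not say whether reads were counted by strand.

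Of the 12 other members 6 were higher and 4 lower in WT beige than in WT white cultures. Ifi44 had 5.56 and 10.8 FPKM in WT beige against 0.0588 and 1.06 FPKM in WT white cultures (2.58, SE 0.35, adjusted p = 0.000316). Tor3a, an AAA ATPase, differed by 1.47 (adjusted p = 7.12e-05) and Xaf1, a proapoptotic protein, by 1.29 (adjusted p = 0.000469). Ifi27l2a, a small membrane protein, stood at 92.4 and 87.3 FPKM in WT beige cultures and at 173 and 225 FPKM in WT white cultures (-1.13, SE 0.15, adjusted p = 0.000267). The other falls were Epsti1 (-0.69, adjusted p = 0.00456), Lgals9, a secreted lectin (-0.55, adjusted p = 0.0292), and Trafd1, a brake on antiviral signalling (-0.32, adjusted p = 0.0226). Epsti1 reached 1 FPKM only in white libraries, through which it was fitted, and stood at 0.10 and 0.292 FPKM in WT beige and 1.13 and 0.729 FPKM in WT white cultures. In KO-labelled cultures the 5 lower members were Ifi27l2a (-1.93), Slfn5 (-1.65), Epsti1 (-0.92), Slfn2 (-0.72) and Oas2 (-0.54).

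Cell makeup differed along with this comparison. All 18 macrophage markers were lower in beige than in white cultures of both genotypes, with summed levels of 37.5 to 39.0 FPKM in WT beige against 574 to 642 FPKM in WT white libraries and 40.0 to 49.9 FPKM in KO-labelled beige against 849 to 901 FPKM in KO-labelled white libraries. Of these 18, 1 was listed at 0 in 1 WT beige library and none in the other 7 libraries. Markers of lymphoid cells summed to at most 0.326 FPKM in any library. Beige markers were higher for 6 of 6 fitted genes in each genotype, and preadipocyte markers were lower for 7 of 7. Of the 10 adipocyte markers, 7 were called higher in beige than in white for WT and 9 for KO-labelled cultures, with 0 lower. Their summed level lay between 11586 and 13054 FPKM across the beige libraries made from mouse fat. Across the white libraries this sum was lower, at 3431 to 5055 FPKM. In bulk RNA fewer cells of a type and less RNA per cell cannot be told apart, and the part of these markers in the members' differences was not tested.

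**Figure D4:**
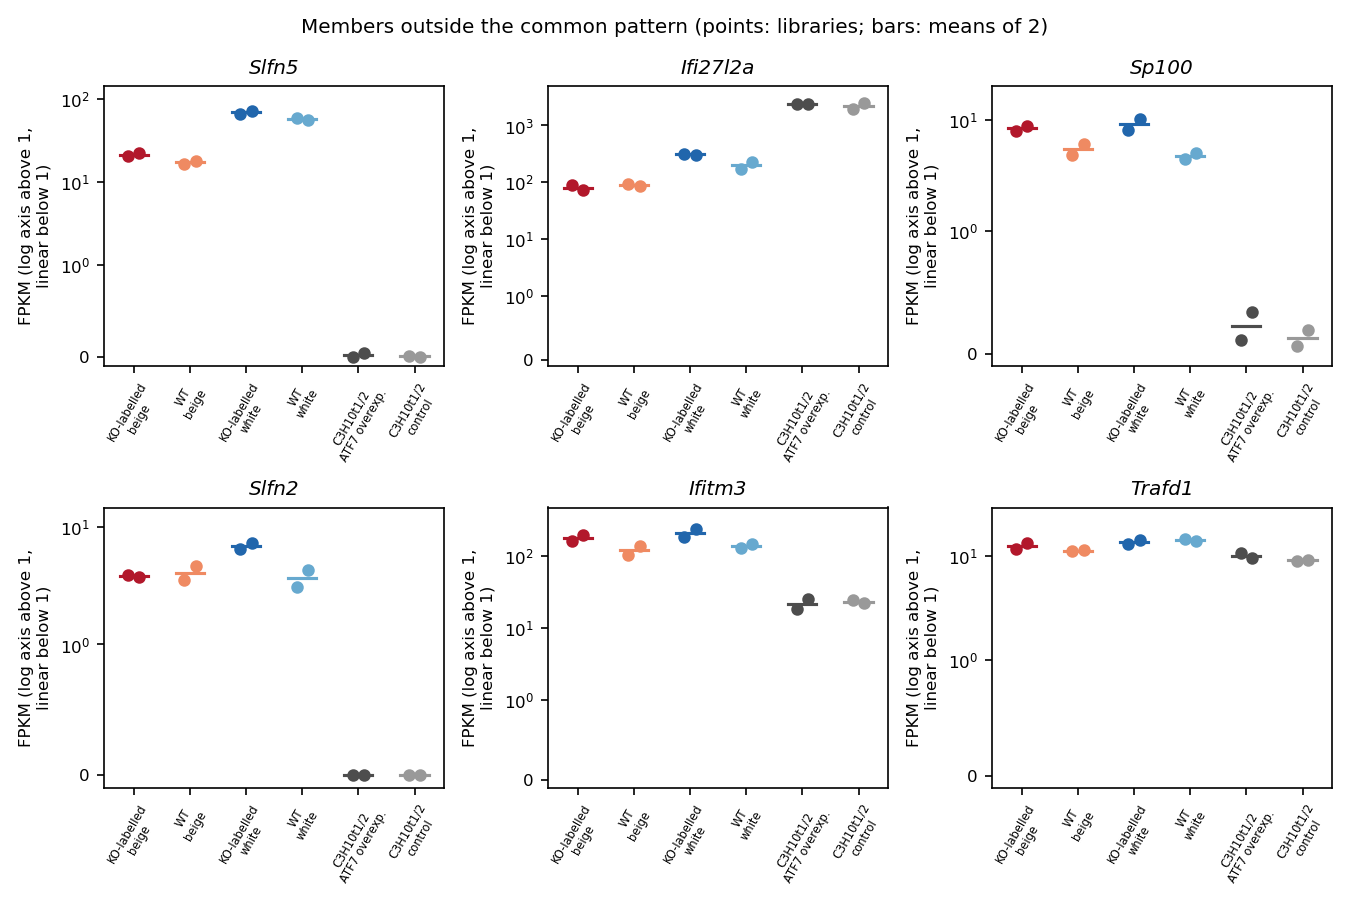
FPKM of Slfn5, Ifi27l2a, Sp100, Slfn2, Ifitm3 and Trafd1 in each library (points) with group means (bars), on an axis that is linear below 1 and logarithmic above. Slfn5 is at 16.3 to 22.4 FPKM in the beige and at 55.6 to 71.9 FPKM in the white libraries made from mouse fat, and Ifi27l2a is at 1981 FPKM or more in every C3H10t1/2 library.

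The beige cultures labelled as ATF7 knockout were set against WT beige cultures, although Atf7 transcript was not lower in them (-0.04, adjusted p = 0.949). No member passed the adjusted test with limma, although 40 of 54 had an unadjusted p under 0.05. The smallest adjusted p was 0.166. Over all genes, 0.151% were called (17 of 11294), 0.0531% as higher, and 1160 had an unadjusted p under 0.05. For 46 members both KO-labelled libraries lay above both WT libraries and for 0 they lay below, beside 27.1% of all genes above and 14.1% below. The members' median log2 difference was 0.48, and that of all genes was 0.04. A value above 0 was found for 50 of the 54 members, beside 60.9% of all genes. Without WT replicate 1 the members' median was 0.29, and without WT replicate 2 it was 0.65.

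Differences of single genes in beige cultures ran between -0.19 and 0.94. Nmi, a STAT-binding protein with the lowest p, stood at 4.23 and 4.75 FPKM in KO-labelled cultures against 2.46 and 2.57 FPKM in WT cultures (0.64, SE 0.13, adjusted p = 0.166). Rsad2 stood well above its WT level in both KO-labelled libraries (0.94, SE 0.19). Mx1 stood at 2.79 and 3.07 FPKM in KO-labelled against 1.53 and 1.75 FPKM in WT cultures (0.57, SE 0.12, adjusted p = 0.201). None of these 3 genes overlapped between genotypes, and none passed the test.

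Isg15 stood at 95.1 and 114 FPKM in KO-labelled beige cultures against 51.8 and 76.0 FPKM in WT beige cultures (0.72, SE 0.27, adjusted p = 0.424). Oasl1 was at 13.0 and 11.4 FPKM in KO-labelled against 5.91 and 8.16 FPKM in WT cultures (adjusted p = 0.28). Zbp1 was at 36.4 and 32.0 FPKM in KO-labelled against 15.3 and 25.8 FPKM in WT cultures (adjusted p = 0.466). The spread between WT libraries was wide for all 3. Role medians ran between 0.29 for TRIM and nuclear body genes and 0.62 for the ISG15 pathway. Isg20, an RNA exonuclease, Ifi27l2a, Slfn2 and Ifi27 had values below 0, between -0.19 and -0.01. Macrophage marker sums were 40.0 and 49.9 FPKM in KO-labelled beige and 37.5 and 39.0 FPKM in WT beige libraries, with 0 of 18 markers called. Of the 6 fitted beige markers 0 were called, and their median log2 difference was 0.57. Ucp1, Cidea, Cox8b, Elovl3 and Ppargc1a were higher in KO-labelled cultures without overlap, and Cox7a1 overlapped. The lowest adjusted p among them was 0.0561, for Cidea (0.89). Of the 10 adipocyte markers 0 were called. The part of these markers in the members' differences was not tested.

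In white cultures 4 members were higher in KO-labelled than in WT libraries, 0 were lower and 50 were not called. Of all genes 1.89% were called, 1.27% as higher. For 42 members both KO-labelled libraries lay above both WT libraries and for 1, Ifi27, both lay below, beside 32.1% and 21.2% of all genes. The members' median was 0.46, and that of all genes was 0.03. Leaving out single white libraries moved this median between 0.27 and 0.64, with the lowest value without KO-labelled replicate 2.

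Sp100, a nuclear body protein, stood at 8.17 and 10.2 FPKM in KO-labelled white cultures and at 4.44 and 5.02 FPKM in WT white cultures (0.82, SE 0.14, adjusted p = 0.0275). Cmpk2 stood at 1.91 and 2.72 FPKM in KO-labelled against 0.580 and 0.861 FPKM in WT cultures (0.94, SE 0.17, adjusted p = 0.0339). Ifit3 stood at 7.05 and 9.95 FPKM in KO-labelled against 2.35 and 3.91 FPKM in WT cultures, the largest of these differences. Slfn2 stood at 6.59 and 7.40 FPKM in KO-labelled and 3.09 and 4.31 FPKM in WT cultures (0.78, SE 0.15, adjusted p = 0.0418). The genotypes did not overlap for any of the 4. The number of calls depended on the setting, and none of the 4 calls held in every one. It was 13 in the 12-library fit, 10 with the replicate number as a block, 6 after quantile normalization, 6 without small RNA and 5 with a minimum of 5 FPKM. In contrast, 0 members were called when any 1 of the 4 white libraries was left out or with no filter on low values, and 1 when either WT beige library was left out or with a pseudocount of 0.1.

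Just above the threshold lay Ifit1 at 9.29 and 13.5 FPKM in KO-labelled against 4.41 and 5.97 FPKM in WT white cultures (0.99, adjusted p = 0.0517). Adar was at 5.54 and 5.73 FPKM in KO-labelled against 3.72 and 3.84 FPKM in WT cultures (0.47, adjusted p = 0.0659). Oas2 was at 3.79 and 5.39 FPKM in KO-labelled and 1.76 and 2.21 FPKM in WT cultures (0.89, adjusted p = 0.0659). These genotypes did not overlap either. Isg15 was at 14.0 and 23.6 FPKM in KO-labelled against 7.92 and 11.7 FPKM in WT cultures (0.85, adjusted p = 0.138), and Ifi27 had the lowest value of the set (-0.36, adjusted p = 0.168). Other markers differed in the same libraries. Macrophage markers were higher for 7 of 18 genes and lower for 0, with sums of 849 and 901 FPKM in KO-labelled against 642 and 574 FPKM in WT cultures and none of the 18 at 0. Of the 10 adipocyte markers 2 were lower, Cd36 (-0.67, adjusted p = 0.0339) and Cidec (-0.73, adjusted p = 0.023), and none was higher, with sums of 3431 and 3460 FPKM in KO-labelled against 4429 and 5055 FPKM in WT cultures. Of the 7 fitted preadipocyte markers 1, Pi16, was higher (0.70, adjusted p = 0.033), with overlapping sums of 2026 and 2142 FPKM in KO-labelled and 1905 and 2413 FPKM in WT cultures. Of 5 markers of plasmacytoid dendritic cells, an immune cell type, only Tlr7 was fitted, and it was higher (0.60, adjusted p = 0.0418). The sums of these 5 were 3.61 and 3.95 FPKM in KO-labelled against 2.46 and 1.76 FPKM in WT cultures. The part of these markers in the members' differences was not tested.

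**Figure D5:**
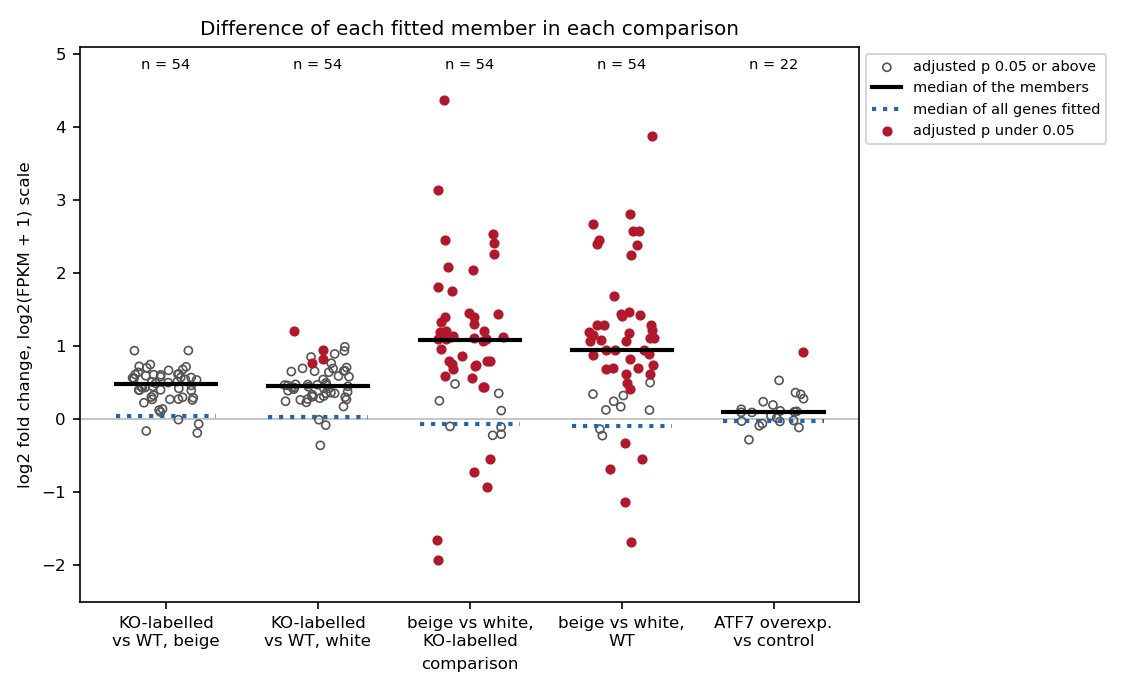
Log2 difference of each fitted member (points; filled where the adjusted p is under 0.05) in 5 comparisons, with the members' median (black line) and the median of all genes fitted (dotted line). The medians are 0.48 and 0.46 for KO-labelled against WT in beige and white cultures, 1.08 and 0.95 for beige against white in KO-labelled and WT cultures, and 0.10 for ATF7 overexpression against control.

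Both KO-labelled libraries lay above both WT libraries in beige and in white cultures for 35 members, in beige alone for 11, in white alone for 7 and in neither for 1, Ifi27. Of all 11294 genes, 7.8% did so in both, 19.3% in beige alone, 24.3% in white alone and 48.6% in neither. Whether the genotype difference depended on rosiglitazone was tested as an interaction, KO-labelled minus WT in beige minus the same in white. With limma 0 of 54 members passed, beside 0.292% of all 11294 genes. An unadjusted p under 0.05 was found for 6 members, beside 1900 of the 11294 genes. The smallest adjusted p values belonged to Slfn2 (-0.84, SE 0.21, adjusted p = 0.161) and Ifi27l2a (-0.81, SE 0.21, adjusted p = 0.167), both of which had values below 0 in beige and above 0 in white cultures. The members' median interaction was 0.0025, with 28 values above 0 and 26 below, beside 51.3% of all genes above 0. The SE of single members ran up to 0.50 for Ifi44. A p that misses the threshold does not show that the genotype difference was alike in both states.

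In C3H10t1/2 the comparison asks how libraries with added ATF7 differ from their controls. Only 22 of the 54 members reached 1 FPKM in at least 2 of these 4 libraries, so the other 32 were not fitted. Of the 22, 1 was higher with ATF7 overexpression and 0 were lower, beside 1.49% of all 9981 genes called, 0.431% as higher. Ifit1 stood at 1.37 and 1.94 FPKM with overexpression and at 0.429 and 0.355 FPKM in the controls (0.92, SE 0.14, adjusted p = 0.0388). It passed the filter through the overexpressing libraries alone, and its call was lost with the replicate number as a block, with quantile normalization, with no filter, in the 12-library fit and whenever 1 library was left out.

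Ifit3 stood at 1.31 and 1.35 FPKM with overexpression against 0.493 and 0.738 FPKM in the controls (0.53, adjusted p = 0.104). Like Ifit1 it was fitted only through the overexpressing libraries, and both are among the 22. Ddx58 stood at 3.45 and 4.25 FPKM with overexpression against 2.61 and 2.91 FPKM in the controls (0.36, adjusted p = 0.169). Isg15 overlapped, at 0.515 and 1.53 FPKM with overexpression and 0.483 and 1.23 FPKM in the controls. Both overexpressing libraries lay above both controls for 10 of the 22 fitted members and below them for 2, beside 20.3% and 28.8% of all genes fitted. Among the 29 unfitted members with any value above 0 the counts were 17 above and 1, Uba7, below, beside 14.2% and 16.4% of 5820 entries of this kind. All these values were under 1 FPKM in at least 3 of the 4 libraries and are given as a description. Beige markers differed between these libraries as well, with 3 of 5 fitted genes lower under overexpression and 0 higher. These were Cidea (-1.79, adjusted p = 0.000472), Ucp1 (-2.16, adjusted p = 0.00198) and Elovl3 (-1.51, adjusted p = 0.00451). Of the 10 adipocyte markers 0 were called. The part of these markers in the members' differences was not tested.

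Beige adipocytes made from fat of C57BL/6 mice and from the cell line were also set side by side. In a fit of all 12 libraries 51 members were higher in WT beige cultures than in the C3H10t1/2 controls, 2 were lower and 1, Epsti1, was not called. Of all 11601 genes 56.4% were called, 25.3% as higher and 31.1% as lower. Both WT beige libraries lay above both controls for 52 members and below them for 2, beside 36.5% and 45.3% of all genes. Many members passed the filter only with the help of the cultures from mouse fat, since 32 did not pass it in the 4 C3H10t1/2 libraries alone. In the C3H10t1/2 controls 35 members averaged under 1 FPKM. Source, strain and cell line differ together here and cannot be told apart. Markers differed as well: 14 of 18 macrophage markers were higher in WT beige cultures and 0 were lower, with sums of 37.5 to 39.0 FPKM in WT beige against 1.80 to 2.38 FPKM in C3H10t1/2 control libraries, where 8 and 14 of the 18 were listed at 0. Of the 7 fitted preadipocyte markers 4 were higher and 2 lower, with sums of 429 and 444 FPKM in WT beige against 169 and 186 FPKM in C3H10t1/2 control libraries. Their part in the members' differences was not tested.

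Isg15 stood at 51.8 and 76.0 FPKM in WT beige cultures and at 0.483 and 1.23 FPKM in C3H10t1/2 controls (5.13, SE 0.33, adjusted p = 5.49e-07). Bst2, the tetherin that holds budding virions, stood at 33.8 and 55.3 FPKM in WT beige cultures and at 1.41 and 1.39 FPKM in C3H10t1/2 controls (4.21, SE 0.30). Trim25 was at 16.5 and 18.4 FPKM in WT beige cultures and was listed at 0 in both C3H10t1/2 controls, as were Cmpk2, Epsti1, Oas1a, Oas3, Oasl1 and Slfn2. An exact 0 in such files may be a failed estimate. Eif2ak2, the kinase PKR, was closer between the sources, at 10.6 and 14.5 FPKM in WT beige cultures against 5.83 and 5.60 FPKM in C3H10t1/2 controls (a ratio of means of 2.19, adjusted p = 0.000131).

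Ifi27l2a and Ifi27 ran the other way. Ifi27l2a stood at 92.4 and 87.3 FPKM in WT beige cultures and at 1981 and 2466 FPKM in C3H10t1/2 controls (-4.61, SE 0.15, adjusted p = 7.15e-09). It was the highest member in all 4 C3H10t1/2 libraries and in all 4 white libraries. Ifi27 stood at 213 and 210 FPKM in WT beige cultures and at 313 and 270 FPKM in C3H10t1/2 controls (-0.46, adjusted p = 0.00676). The entries of these genes overlap on chromosome 12, so how reads were divided between them is uncertain.

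Genes known to act in interferon signalling were examined through a list of 68 interferon pathway genes. All 21 interferon ligand genes were at or near 0: between 18 and 21 of them were listed at 0 in each library, and no ligand exceeded 0.439 FPKM. Ifnb1, the interferon that many cell types make first, was listed at 0 in every library but 1 KO-labelled beige library, at 0.0909 FPKM. The 5 fitted receptor genes were lower in WT beige than in WT white cultures, including Ifnar1 (-0.36, adjusted p = 0.0177) and Ifnar2 (-0.50, adjusted p = 0.00311). Of the 42 pathway genes fitted, 10 were higher and 19 lower in WT beige cultures, beside the 21.6% and 32.1% of all genes.

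Among the transcription factors of the pathway, Irf7, Stat2 and Irf9 were higher. Irf7, which switches on interferon genes and is itself interferon-induced, stood at 20.1 and 29.4 FPKM in WT beige cultures against 3.31 and 6.16 FPKM in WT white cultures (2.19, SE 0.29, adjusted p = 0.00029). Stat2 differed by 1.29 (adjusted p = 0.000299) and Irf9 by 0.71 (adjusted p = 0.00327). Irf3, the factor that sensors activate, and Irf1, a factor of the interferon gamma response, were not called, and Irf5 (-1.07) and Irf8 (-1.22), factors of myeloid cells, were lower.

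Between genotypes none of the 42 pathway genes was called in beige cultures, and 2 were higher in KO-labelled white cultures. In beige cultures Irf7 stood at 45.4 and 40.6 FPKM in KO-labelled against 20.1 and 29.4 FPKM in WT libraries (0.80, SE 0.29, adjusted p = 0.424). The 2 genes called in white cultures were Ptpn6, a phosphatase of blood cells (0.87, adjusted p = 0.0306), and Trex1, a nuclease that clears cytosolic DNA (0.83, adjusted p = 0.0457). In C3H10t1/2, Irf7 stood at 1.24 and 1.46 FPKM with ATF7 overexpression and at 0.608 and 0.576 FPKM in the controls (0.56, adjusted p = 0.08), and it too was fitted only through the overexpressing libraries.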

How the data were processed

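RNA-seq values of 12 libraries were used. Directional libraries were made from TRIZOL RNA after ribosomal RNA depletion and read from both ends, per the labels' protocols. FPKM values, 1 per entry, were made by the authors and deposited in that unit, and per the submitters' processing notes the build was mm10 (GRCm38). Which aligner and quantifier were used is not given in the sources. Libraries were joined by symbol and locus over 24888 entries, and for a symbol at several loci the one with the highest mean was used.

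Values were fitted as log2(FPKM + 1) by limma 3.58.1 with a trended prior (R 4.3.3), two-sided, with Benjamini-Hochberg adjustment over all entries that reached 1 FPKM in 2 or more of the fitted libraries: 8 libraries of primary cultures, 4 of C3H10t1/2, and all 12 for the comparison between them. The code was tested on simulated data. Residual degrees of freedom were 4, 2 and 6. Low values, as multiples of 1 fragment, gave library depths between 0.732 and 1.08 times that of WT beige replicate 1, and total depth is unknown. The members, lists and tests were chosen with earlier results of these data known. In each role, at most 4 members with the lowest p were to be named with values, plus members against the majority, members called in few comparisons and listed pathway genes. The members shown did not always follow this rule. Examples are Zbp1 in KO-labelled against WT beige cultures and Eif2ak2 in WT beige cultures against C3H10t1/2 controls, which were not among the lowest p of their roles. Alternatives were a pseudocount of 0.1, no filter, a minimum of 5 FPKM, quantile normalization, 1375 small RNA entries left out, a replicate block, all 12 libraries in one fit and each library left out. Promoters came from RefSeq.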

Additional observations from a re-analysis of the deposited data

How the results depend on the processing

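Replicate numbers were not taken as pairs, since only 2 of the 6 pairs of primary groups had deviations of same-numbered libraries that correlated above 0.1 across all genes (-0.10 to 0.15), and in C3H10t1/2 the value was 0.09. Across the 54 members alone the values ran between -0.19 and 0.53, with 0.53 for WT beige and WT white, 0.50 for KO-labelled white and WT beige and 0.30 for KO-labelled white and WT white cultures. With the replicate block 10 members were called in KO-labelled against WT white cultures, instead of 4, and 0 in C3H10t1/2, and in KO-labelled against WT beige cultures 0 were called under every alternative. For KO-labelled against WT white cultures, calls were 1 with a pseudocount of 0.1 (median 0.61), 0 with no filter, 13 in the 12-library fit, and 0 to 3 with 1 library left out (median 0.27 to 0.64). The Ifit1 call in C3H10t1/2 was lost with no filter, a minimum of 5 FPKM, quantile normalization, the block and the 12-library fit, and 0 members were called with any 1 library left out (median 0.0045 to 0.12). For beige against white in WT cultures the median was 1.13 with a pseudocount of 0.1, 1.08 with a minimum of 5 FPKM, 1.09 after quantile normalization and 0.71 to 1.16 with 1 library left out, with 38 to 47 calls. In KO-labelled cultures it was 0.87 without small RNA and 0.87 to 1.19 with 1 library left out, with 42 to 46 calls. WT beige against C3H10t1/2 control had medians of 3.86 with a pseudocount of 0.1, 2.51 with a minimum of 5 FPKM, 2.00 after quantile normalization and 2.00 to 2.33 with 1 library left out, with 50 to 53 calls. In KO-labelled against WT beige cultures the median ran between 0.29 and 0.65 with 1 library left out.

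The sign of the median interaction (0.0025) was not stable: it was -0.0638 with a pseudocount of 0.1, -0.0931 after quantile normalization, -0.0665 without small RNA, and -0.188 to 0.163 with 1 library left out (-0.188 without WT beige replicate 1, -0.0374 without KO-labelled beige replicate 1, -0.0979 without WT white replicate 2 and -0.18 without KO-labelled white replicate 1). Calls held in every alternative for 35 of 45 members in WT and 37 of 46 in KO-labelled beige against white cultures, for 50 of 53 in WT beige against C3H10t1/2 control, and for 0 of 4 and 0 of 1 in KO-labelled white and overexpressing cultures. No called member changed sign under any alternative. Scaling moved the background: higher genes were 40.2% of all genes called in WT beige against white, 27.7% without small RNA (median of all genes -0.23) and 50.9% after quantile normalization, and the members' split was then 38 higher and 5 lower, and 42 and 5. In KO-labelled cultures the shares were 43.7%, 29.2% and 52.8%, with 38 higher and 9 lower members without small RNA. The causes of these moves were not tested. With 2 libraries per group and no counts, small differences and levels under 1 FPKM cannot be resolved.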

Other observations

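Within groups the members often shifted together between the 2 libraries. Replicate 2 lay above replicate 1 for 50 of 53 members with at least 1 FPKM in WT beige cultures, for 52 of 53 in KO-labelled white cultures and for 43 of 48 in WT white cultures, but for 17 of 53 in KO-labelled beige cultures. The shares over all genes at that level were 46.3%, 58.4%, 54.8% and 68.4% in the same groups. The median shift of the members, replicate 2 minus replicate 1 on the log2 scale, was 0.33 in WT beige, 0.35 in KO-labelled white, 0.28 in WT white and -0.07 in KO-labelled beige cultures. The members' median differences between genotypes were 0.48 in beige and 0.46 in white cultures.

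The kept members lie on 15 chromosomes, with 9 on chromosome 11 and 6 each on chromosomes 5 and 16.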
